A study of Mus musculus with 6 samples.

Results

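The 36 genes described here encode proteins of the cell cycle. 15 serve entry into S phase and DNA replication, and 21 serve mitosis. They were chosen as a list of known mitosis, S phase and replication licensing genes, and all 36 were found by symbol among the 27179 Entrez gene identifiers of the expression table. They were measured by RNA sequencing in lenses of newborn mice, taken on postnatal day 1, of a B6/FVB background. The 3 libraries KO 1 to KO 3 are labelled Gclc KO and the 3 libraries CON 1 to CON 3 Gclc CON. Gclc encodes the catalytic subunit of the enzyme that starts glutathione synthesis. The labels give no Cre driver, allele, sex, litter or number of animals per library, so p-values measure the spread between these libraries only. What is compared is how the machinery of cell division stands in KO lenses, in which the cell cycle inhibitor gene Cdkn1a was far above its level in CON lenses.

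A dividing cell first loads the MCM helicase onto its origins of replication, a step called licensing, then copies its DNA in S phase and separates the copies in mitosis. The Cdkn1a product binds cyclin and kinase complexes and arrests the cycle. When it acts, pocket proteins and E2F factors are known to repress replication genes through E2F sites and mitosis genes through the CHR, a short promoter element that often lies beside CCAAT boxes. In the lens, division takes place in the anterior epithelium, mainly near the equator, and cells leave the cycle as they become fibres.

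Levels are given, in the order of libraries 1 to 3, as normalised reads. These are reads per gene divided by the size factor of the library, which accounts for depth but does not follow it alone. KO 2 and CON 1 held 45842484 and 43384443 reads and had size factors of 1.66 and 0.947. Libraries held from 45842484 to 61219009 reads in KO and from 20361430 to 43384443 in CON, and crystallins took from 40.5% to 47.5% of the reads in KO and from 59.5% to 68.4% in CON. Gclc itself had 17.9, 72.1 and 58.1 normalised reads in KO, against 178, 283 and 173 in CON (log2 difference -1.01, SE 0.28, adjusted p = 0.0387, limma). Differences were tested with limma across 11468 genes on the deposited log2 scale, KO minus CON. That scale shrinks the differences of genes with few reads. A gene is called higher or lower at a Benjamini-Hochberg adjusted p under 0.05, as were 11.3% of all genes tested.

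Most cell cycle genes passed the test in neither direction in KO lenses. Of the 35 members tested, 2 rose, both of them subunits of the replicative helicase (Mcm3 and Mcm4), where 6.91% of all genes tested rose. The spindle gene Spag5 was the 1 member that fell, where 4.39% of all genes did. The 3 of 35 called members stand against 11.3% of all genes tested, and the other 32 did not pass. The median log2 difference of the 15 replication members was 0.59 and that of the 20 tested mitosis members 0.14, where that of all genes tested was 0.03. All 15 replication members had a difference above 0, as did 12 of the 20 mitosis members and 52.5% of all genes tested. Of the replication members, E2f1 turned to -0.03 under quantile normalisation, and Mcm2, Mcm7, Cdt1 and E2f1 to between -0.03 and -0.01 without CON 3. The groups did not overlap, with KO above CON, for 7 of 15 replication members, for 1 of 20 mitosis members and for 16.9% of all genes tested. With KO below CON, they did not overlap for 1 member, Spag5, and for 14.1% of all genes tested. Foxm1 was not tested because its mean lay under the filter on low values.

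**Figure D1:**
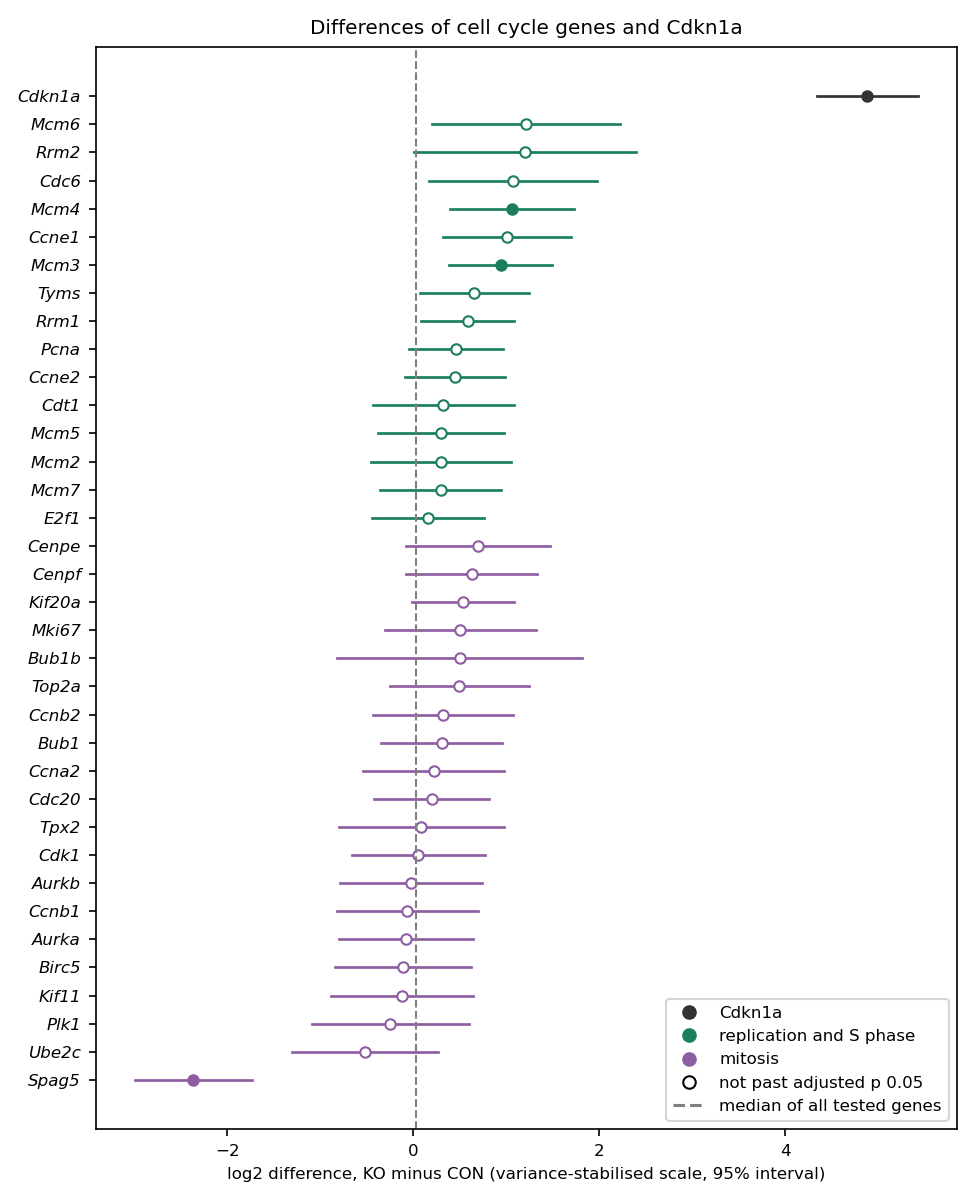
Log2 difference, KO minus CON, of Cdkn1a and the 35 tested members on the variance-stabilised scale, with 95% intervals from the limma fit. Filled points passed an adjusted p of 0.05, and the dashed line is the median of all genes tested. Cdkn1a stands at 4.89, the replication members run from 0.16 to 1.21, and Spag5, at -2.37, stands apart from the other mitosis members.

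Cdkn1a, against which the members are read, had 7896, 7128 and 6353 normalised reads in KO, against 105, 163.6 and 47.2 in CON. The KO libraries were all above the CON libraries by a wide margin (7126 ± 772 and 105 ± 58.2; SD, n = 3 each; 67.8-fold; log2 difference 4.89, SE 0.25, limma adjusted p = 1.4e-06). Among the other CDK inhibitors, Cdkn1c, which is known to act as fibre cells leave the cycle, moved the other way. It had 2927, 1294 and 1946 normalised reads in KO, against 6246, 7999.9 and 4558 in CON, with no overlap (log2 difference -1.56, SE 0.29, limma adjusted p = 0.00649). Cdkn1c kept its direction under all 18 alternative fits and lost its call under 1 of them. Cdkn1b, Cdkn2b, Cdkn2c and Cdkn2d did not pass, with log2 differences from -0.28 to 0.32.

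The promoters of 4 genes are shown to set out the elements named above in genes that rose (Cdkn1a and Mcm3), fell (Spag5) and did not pass (Ccnb1). Each window runs from 250 bases before to 50 bases after the start of the gene, taken from RefSeq on GRCm38.p6 and written 5′ to 3′ along the gene. Capitals mark every match, on both strands, to the CCAAT box (CCAAT), the CHR (TTTGAA, in its other form TTTAAA), the E2F site (TTCCCGC, with its variants spelled TTCGCGC, as well as TTGCCGC, and lastly TTGGCGC) and the p53 half-site. The windows lie at chr17:29090729-29091028, plus strand (Cdkn1a, the first of 2 RefSeq starts), chr1:20820263-20820562, minus strand (Mcm3), chr11:78301341-78301640, plus strand (Spag5) and chr13:100786437-100786736, minus strand (Ccnb1).
Cdkn1a: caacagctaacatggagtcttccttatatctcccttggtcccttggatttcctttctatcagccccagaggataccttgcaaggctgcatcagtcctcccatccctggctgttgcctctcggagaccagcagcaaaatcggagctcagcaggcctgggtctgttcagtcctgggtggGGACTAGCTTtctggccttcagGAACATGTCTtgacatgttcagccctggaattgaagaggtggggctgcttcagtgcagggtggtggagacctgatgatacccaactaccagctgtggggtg
Mcm3: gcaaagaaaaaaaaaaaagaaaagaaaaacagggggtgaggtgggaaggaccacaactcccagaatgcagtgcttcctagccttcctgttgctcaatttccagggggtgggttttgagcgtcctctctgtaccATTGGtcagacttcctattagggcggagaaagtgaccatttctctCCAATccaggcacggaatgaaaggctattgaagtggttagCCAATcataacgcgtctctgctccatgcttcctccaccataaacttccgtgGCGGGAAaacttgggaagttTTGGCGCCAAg
Spag5: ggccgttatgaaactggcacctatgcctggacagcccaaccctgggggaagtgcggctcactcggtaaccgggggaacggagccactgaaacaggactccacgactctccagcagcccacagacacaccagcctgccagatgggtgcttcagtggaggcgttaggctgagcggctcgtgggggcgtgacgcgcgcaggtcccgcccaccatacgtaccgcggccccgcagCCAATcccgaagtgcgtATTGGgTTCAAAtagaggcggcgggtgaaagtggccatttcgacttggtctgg
Ccnb1: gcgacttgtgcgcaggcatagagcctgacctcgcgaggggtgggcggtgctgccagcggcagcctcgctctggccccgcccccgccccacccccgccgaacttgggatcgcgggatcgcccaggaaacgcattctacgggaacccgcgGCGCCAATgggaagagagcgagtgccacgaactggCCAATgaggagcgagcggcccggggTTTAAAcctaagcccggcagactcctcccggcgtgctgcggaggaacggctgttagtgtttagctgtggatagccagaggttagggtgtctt
The Cdkn1a window held 2 p53 half-sites and none of the other elements, and the window at its other RefSeq start, not shown, held no match to any. The Mcm3 window held 3 CCAAT boxes and 3 E2F matches after the start, of which the last 2 overlap each other. The Spag5 window held 2 CCAAT boxes, followed by a CHR at the start of the gene. The Ccnb1 window held 2 CCAAT boxes, a CHR and an E2F match that overlaps the first CCAAT box.

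Promoter windows were at hand for 29 of the 36 members. A CHR was found in 15 of 16 mitosis members, 4 of 13 replication members and 30.6% of all 27025 genes with a window. A CCAAT box was found in 15 of 16 mitosis members, 8 of 13 replication members and 41.1% of all genes. E2F matches were found in 3 of 16 mitosis members, 8 of 13 replication members and 10.9% of all genes. A p53 half-site was found in 2 mitosis members, 1 replication member and 9.55% of all genes. No difference between the 2 roles was tested. A match is a stretch of letters and was not tested as a binding site. The promoters of Spag5, the member that fell, and of Ccnb1, which did not pass, both held CCAAT boxes and a CHR.

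Genes of S phase entry came first in the cycle. Ccne1 and Ccne2 encode the E cyclins, which activate the kinase of Cdk2 at the start of S phase. Ccne1 had 307, 259.7 and 284 normalised reads in KO, against 187.9, 59.8 and 28.0 in CON. Every KO library was above every CON library, and the call was missed (log2 difference 1.01, 95% interval 0.33 to 1.69, limma adjusted p = 0.0606). Without CON 1, the highest of the CON libraries, it passed (1.33, adjusted p = 0.0108). With any other library left out it did not (adjusted p from 0.144 to 0.163), and without CON 3 the difference was 0.76. Ccne2 had 182, 186 and 217 in KO, against 98.2, 126 and 102 in CON, again without overlap (log2 difference 0.45, adjusted p = 0.273). E2f1, which encodes an activator of S phase genes, had 97.9, 154 and 139.5 in KO, against 116, 154 and 56.0 in CON, and its groups overlapped.

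The licensing factors include the MCM helicase subunits and the loaders Cdc6 and Cdt1. Mcm3 had 1262, 1834 and 1016 normalised reads in KO, against 740.0, 589 and 531 in CON. KO was above CON in every library (1371 ± 419.6 and 619.8 ± 108; SD, n = 3 each; log2 difference 0.94, SE 0.25, limma adjusted p = 0.0343). Mcm4 had 1292, 1654 and 1133 in KO, against 911, 595 and 304 in CON, also without overlap (1359.6 ± 267 and 603 ± 304; log2 difference 1.06, SE 0.30, limma adjusted p = 0.0450). Both rises were about 2-fold in normalised reads, 2.21-fold for Mcm3 and 2.25-fold for Mcm4. Neither call was firm. That of Mcm3 was lost without KO 1, KO 2, CON 2 or CON 3 (adjusted p up to 0.212), and that of Mcm4 without KO 1, KO 2, KO 3, CON 2 or CON 3 (adjusted p up to 0.190).

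The other MCM genes split by overlap. Mcm6 had 1368, 2536 and 1673 normalised reads in KO, against 1096, 1268 and 183 in CON. Its groups did not overlap (log2 difference 1.21, SE 0.46, limma adjusted p = 0.117). CON 3 was far below the other CON libraries, and without it the difference was 0.55 (adjusted p = 0.243). Mcm2, Mcm5 and Mcm7 overlapped, with differences of 0.30, 0.30 and 0.29. Mcm2 reached its highest value, 1638, in CON 1. Cdc6, which recruits the helicase to origins, had 289, 272 and 72.4 normalised reads in KO, against 52.8, 110.1 and 0 in CON (log2 difference 1.08, adjusted p = 0.119). The 0 in CON 3 allows up to 4.42 normalised reads, from 3 reads and for counting error only, and without CON 3 the difference was 0.65 (adjusted p = 0.303). Cdt1, its partner in loading, had 191, 355 and 215 in KO, against 336, 189 and 59.0 in CON, and did not separate the groups (adjusted p = 0.604).

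The genes of the replication fork and of nucleotide supply had log2 differences of 0.46 to 1.20. None of the 4 passed with limma or with voom on size factors, and 3 had an unadjusted p under 0.05 with limma. Pcna, which encodes the sliding clamp of the DNA polymerases, had 2256, 1717 and 1684 normalised reads in KO, against 1005, 1602 and 1385 in CON. Rrm1, the large subunit gene of ribonucleotide reductase, had 2735, 2459 and 1899 in KO, against 1665, 1174 and 1723 in CON. Neither gene overlapped between groups (log2 differences 0.46 and 0.59, adjusted p = 0.233 and 0.127, limma). Rrm2, the small subunit gene, varied widely, with 2605, 1646 and 812 in KO, against 829.7, 1322 and 121 in CON (log2 difference 1.20, adjusted p = 0.186). Without CON 3 its difference was 0.48 (adjusted p = 0.493). Tyms, which encodes thymidylate synthase, had 1022, 922 and 599 in KO, against 448, 636 and 353 in CON (log2 difference 0.66, adjusted p = 0.143). Over these 15 replication members, 8 had an unadjusted p under 0.05, all with KO higher, where 15% of all genes tested did so in that direction and 11.3% in the other. CON 3 was the lowest CON library for 12 of the 15, against 31.2% of all genes tested, and without CON 3 the median difference was 0.50.

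**Figure D2:**
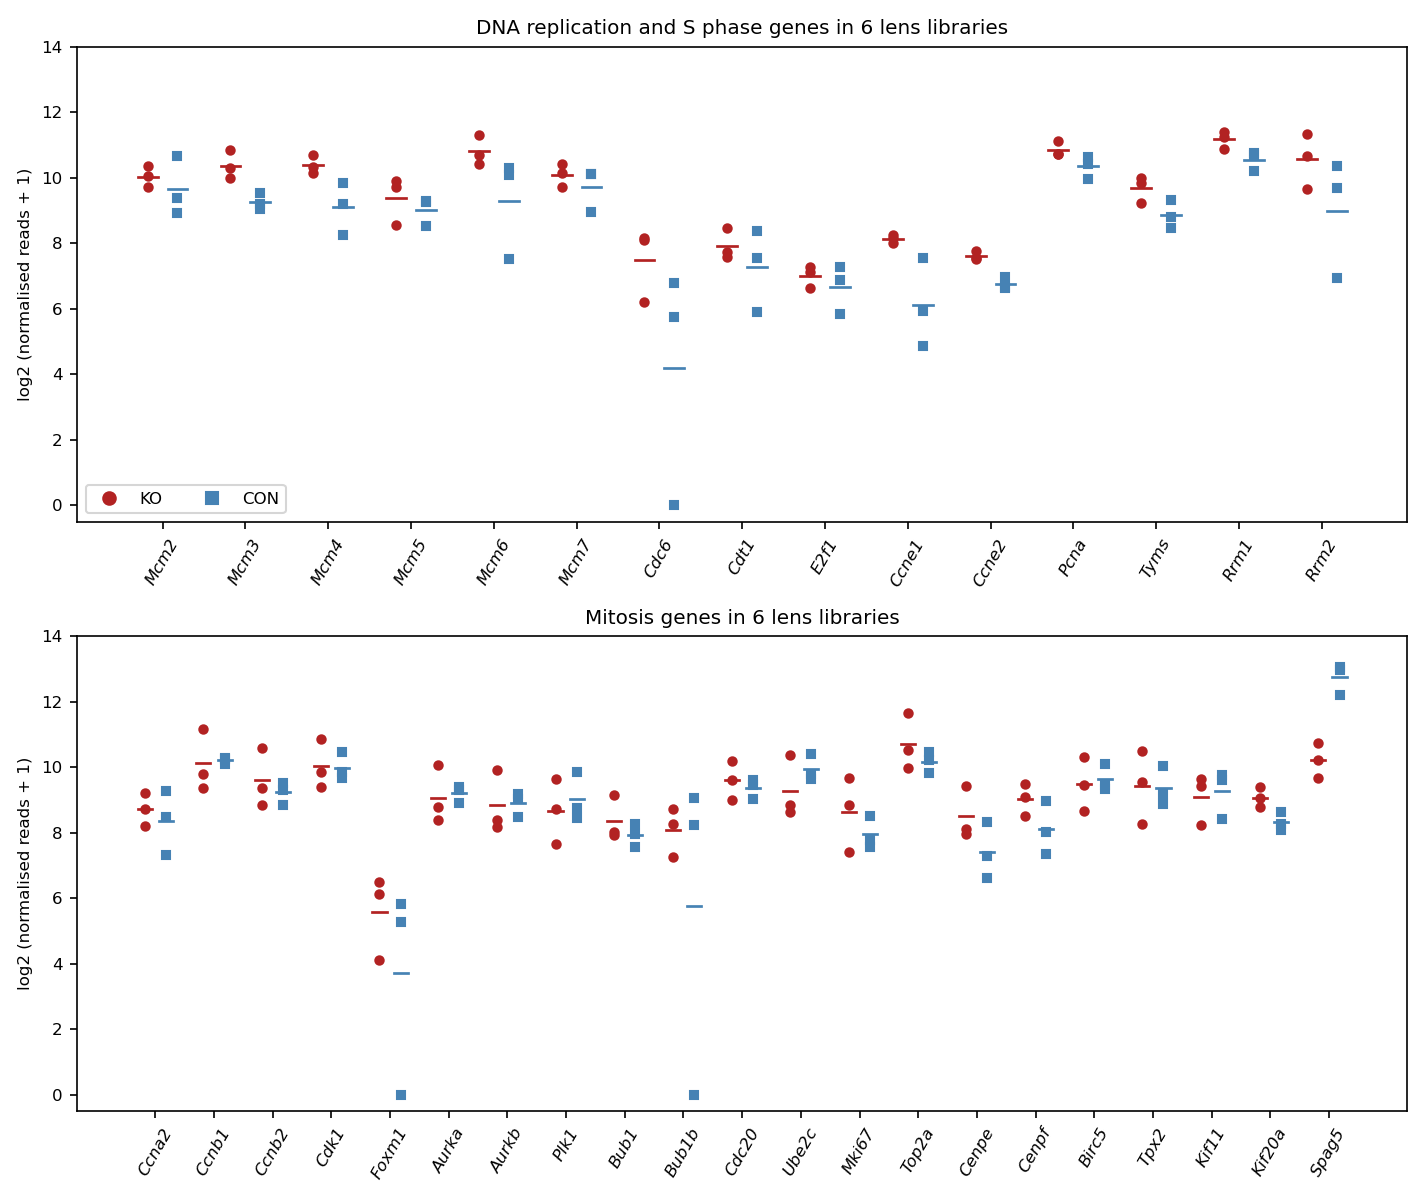
Level of each member in each library, as log2 of normalised reads plus 1, for 15 replication members (top) and 21 mitosis members (bottom). Points are libraries, KO left and CON right of each pair, and short lines are means of the 3 values. Mcm3 and Mcm4 are higher in every KO library, Spag5 is lower in every KO library, and Cdc6, Foxm1 and Bub1b are at 0 in CON 3.

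The mitotic cyclins and their kinase did not separate the groups. Cdk1, the kinase that drives entry into mitosis, had 1872, 928 and 668 normalised reads in KO, against 804, 1394 and 923 in CON. Its partner Ccnb1 had 2312, 886 and 659.6 in KO, against 1099, 1234 and 1219.8 in CON. For both, KO 1 lay above all CON libraries and KO 3 below them. The log2 differences were 0.06 for Cdk1 (95% interval -0.66 to 0.77) and -0.06 for Ccnb1 (-0.82 to 0.70), and those of Ccnb2 and Ccna2 were 0.32 and 0.22. Foxm1, which encodes an activator of mitosis genes, had low levels and was not tested. It had 88.7, 69.1 and 16.4 normalised reads in KO, against 55.9, 37.8 and 0 in CON.

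The mitotic kinases and checkpoint genes also overlapped between the groups. Plk1, the polo kinase gene, had 803, 418 and 198 normalised reads in KO, against 346, 932 and 431 in CON (log2 difference -0.24, adjusted p = 0.740, limma). Aurka and Aurkb, the genes of the Aurora kinases of spindle poles and centromeres, differed by -0.08 and -0.02. Bub1 and Bub1b, of the spindle checkpoint, differed by 0.31 and 0.50. Bub1b had 419, 305 and 151.7 in KO, against 534, 302 and 0 in CON, so that its positive difference turned to -0.39 without CON 3. Cdc20 and Ube2c serve the anaphase-promoting complex, which ends mitosis. Cdc20 differed by 0.20, and Ube2c had 1333, 461 and 392 in KO, against 789, 1347 and 889 in CON (log2 difference -0.52, 95% interval -1.30 to 0.27, adjusted p = 0.396).

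Genes of chromosomes, centromeres and spindle motors completed the list. Mki67, the gene of the proliferation marker Ki-67, had 805, 462 and 168 normalised reads in KO, against 219.6, 362 and 189 in CON (log2 difference 0.51, adjusted p = 0.426, limma). Top2a, which encodes the topoisomerase that untangles chromosomes, had 3203, 1473 and 1004 in KO, against 1195, 897 and 1413 in CON (0.50, adjusted p = 0.392). The kinetochore genes Cenpe and Cenpf differed by 0.70 and 0.63, and Birc5, of the chromosomal passenger complex, by -0.11. Of the spindle genes, Tpx2 and Kif11 differed by 0.09 and -0.12. Kif20a, a kinesin gene of the last steps of division, was the only mitosis member above CON in all KO libraries, with 665, 529.6 and 434 in KO, against 270.2, 308 and 398 in CON (0.54, adjusted p = 0.198).

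Spag5 departed from all other members. It encodes astrin, a protein of spindle microtubules and kinetochores. It had 1706, 810.4 and 1181 normalised reads in KO, against 4731, 8469 and 7931 in CON. The highest KO library lay far under the lowest CON library (1232 ± 450.0 and 7044 ± 2021; SD, n = 3 each; 0.175-fold). Spag5 fell by 2.37 on the log2 scale (SE 0.29, limma adjusted p = 0.000595), and it passed under all 18 alternatives tried, with differences from -2.62 to -1.64. Its level was also out of line in CON. Per kilobase of annotated exon, Spag5 had 219 normalised reads in KO and 1252 in CON. In CON it stood first among the 36 members, before Pcna (786 in KO and 554 in CON) and Ccnb2 (579.9 in KO and 398 in CON), and in KO it stood in place 14.

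**Figure D3:**
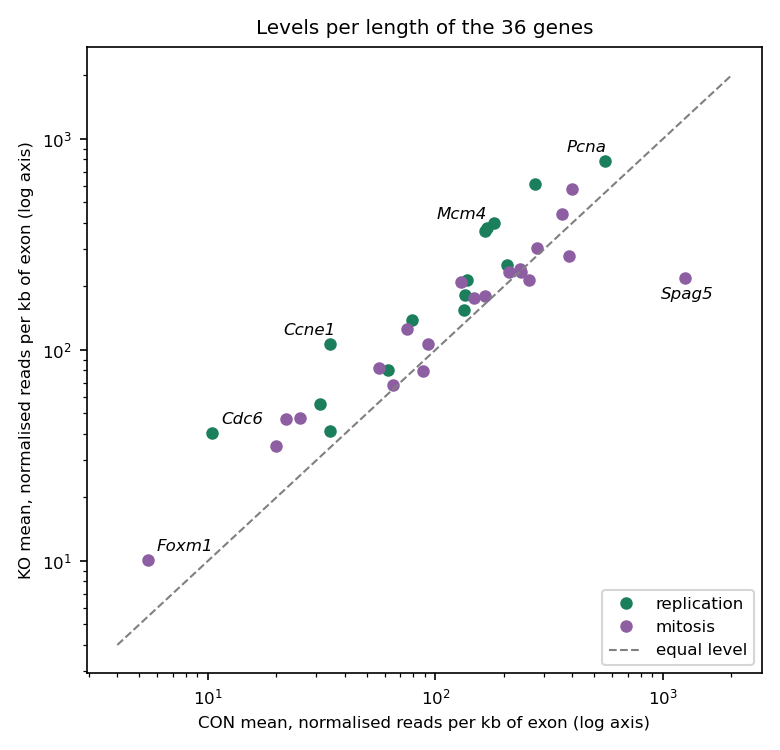
Mean level of each member in KO (vertical axis) and in CON (horizontal axis), in normalised reads per kilobase of annotated exon, both on log axes, with the line of equal level. Spag5 lies far below the line at 219 in KO and 1252 in CON, whereas Pcna, Mcm4, Ccne1 and Cdc6 lie above it.

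Lens fibre genes fell in the same libraries. All 7 fibre markers read (Mip, Lim2, Bfsp1, Bfsp2, Lgsn, Gja3 and Dnase2b) fell, with log2 differences from -2.04 to -1.09 and a summed level of 285435 to 401952 normalised reads in KO, against 770766 to 1027860 in CON. Aldoc, the next gene downstream of Spag5 on the same strand, was looked up after the fall of Spag5 was seen. It had 5719, 4666 and 4899.6 in KO, against 10270.1, 11906 and 15151 in CON (log2 difference -1.25, SE 0.21, limma adjusted p = 0.00358). Whether reads of the 2 neighbours were kept apart, and the part of either measure in the fall of Spag5, was not tested. In RNA from whole lenses, fewer cells of a type and less RNA per cell cannot be told apart.

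The KO libraries differed among themselves more in mitosis than in replication genes. Summed over the 20 mitosis members other than Spag5, KO 1 to 3 had 22213, 11468 and 7443 normalised reads, against 11687, 13284 and 9571 in CON. KO 1 was above and KO 3 below every CON library, and KO 2 was within the CON range. KO 1 was the highest KO library for 18 of the 19 of these that were tested, and KO 3 the lowest for all 19. Over all genes tested, KO 1 was the highest for 41.7% and KO 3 the lowest for 30%. Kif11, highest in KO 2, was the exception. The median ratio of KO 1 to the mean of KO 2 and KO 3 was 2.55 for these mitosis members, 1.03 for replication members and 1.01 for all genes tested. Without KO 1, the median difference of the mitosis members, Spag5 included, was -0.17, against 0.14 with all libraries, without CON 3 it was -0.04 and without KO 3 it was 0.42. Spag5 was the only mitosis member that passed in each of these 3 fits.

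Replication members kept the groups apart in their sum. Summed over 15 genes, they had 16433, 17632 and 12030.1 normalised reads in KO, against 10864, 10247 and 6195 in CON. The lowest KO library, KO 3, was above the highest CON library, CON 1, and no test was made on this sum. For the wider list of 56 other replication genes, described below, the sums overlapped. They ran from 33792 to 40972 in KO, against 30548.5 to 36922 in CON.

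Markers of other cells were read beside these sums. Of 10 macrophage markers, 9 rose with limma (4 with voom on size factors), and their sum was 18538, 9305 and 5813 in KO 1 to 3, the order of the mitosis sum, against 1460 to 2621 in CON, with Adgre1 and Ptprc at 0 in CON 2. KO 1 was the highest KO library for all 10. The 6 endothelium markers had a sum of 3005, 1672 and 962 in KO, in the same order, against 1932 to 2115 in CON. KO 1 was the highest KO library for 4 of them. Cdh5 was lowest in KO 1 (10.9, 42.1 and 33.8 in KO) and Kdr highest in KO 3 (106, 90.8 and 132). None of the 6 passed with limma or voom, and Cdh5, lower in KO, had an unadjusted p under 0.05 with limma. The order also held for Cdkn1a and for the sums of other replication genes and of all listed lens epithelium markers (13348, 12359 and 11936). It did not hold for the epithelium sum without Pax6, or for fibre, crystallin, mesenchyme, retina and red cell sums. Of 6 tested retina markers, the progenitor gene Six6 rose, and the list summed to 4963 to 5475 in KO, against 1258 to 1888 in CON, with Pou4f2 at 0 in KO 1 and in all CON libraries.

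**Figure D4:**
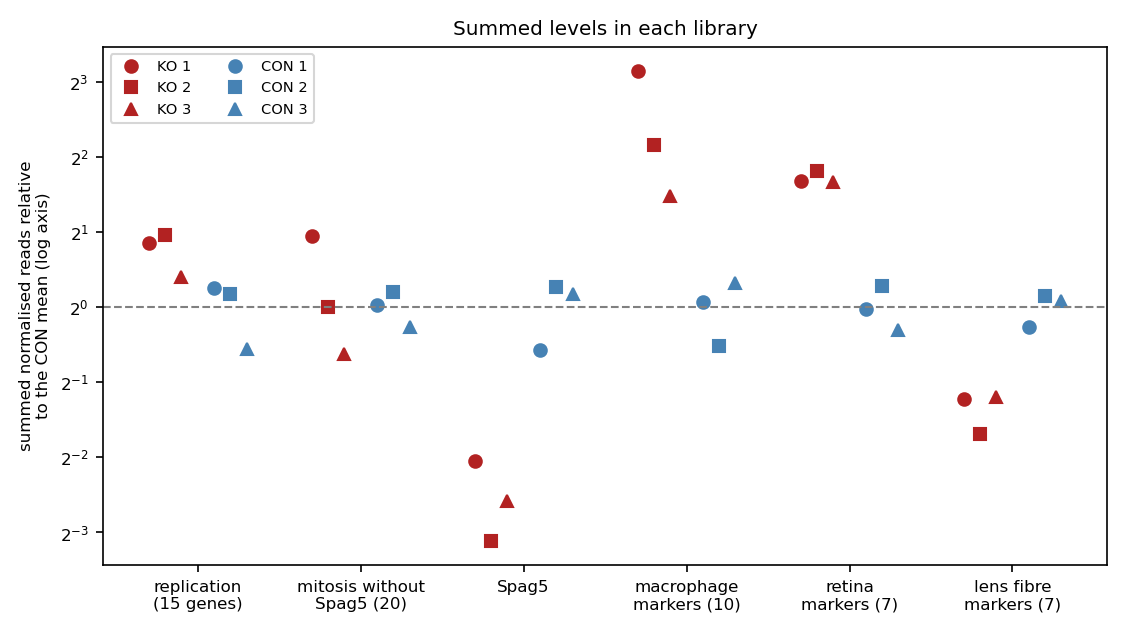
Summed normalised reads of gene lists in each library, relative to the mean of the CON libraries, on a log axis, with KO left and CON right in each list. The replication sum stands at 1.32 to 1.94 in KO and 0.681 to 1.19 in CON. The mitosis sum runs from 0.646 (KO 3) to 1.93 (KO 1), in the order of the macrophage markers and of lists not shown.

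Of 5 tested lens epithelium markers, Pax6 rose and Cdh1, Slc38a3 and Fgfr3 fell, and the list without Pax6, which holds most of its reads, summed to 1355 to 1548 in KO, against 2776 to 6464 in CON. With Pax6 the sums were 11936 to 13348 in KO and 7660 to 11843 in CON. Foxe3, which defines the epithelium where lens cells divide, had 3.46, 4.21 and 0 in KO, against 514, 81.8 and 2.95 in CON, and was not tested. Of 2 tested mesenchyme markers 1 fell, Pdgfra, and Col1a2 did not pass. The 6 listed mesenchyme markers summed to 371 to 435 in KO and 748 to 1356 in CON. Pdgfra held most of the CON sum (mean of 758, against 1104 for the list). Col1a1, which was not tested, went the other way, with 43.2, 90.8 and 81.9 in KO, against 23.2, 0 and 0 in CON. None of 3 tested red cell markers passed with limma or voom, and all 3 were lower at an unadjusted p under 0.05 with limma (sums of 1386 to 2067 in KO and 2355 to 3559 in CON). Of 9 crystallins 6 fell. The part of any of these cells in the levels of the cell cycle genes was not tested.

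Wider lists of the same machinery were read beside the members. Of 55 tested other replication genes, 1 rose and none fell with limma, with a median log2 difference of 0.33. At an unadjusted p under 0.05, 10 were higher and 2 lower, where 15% and 11.3% of all genes tested were. Voom on size factors called 0. The gene that rose was Hells, which encodes a chromatin remodeller active in S phase. It had 501, 851 and 248 normalised reads in KO, against 140.4, 135 and 57.5 in CON (1.36, SE 0.34, limma adjusted p = 0.0269). Its call was lost without KO 1, KO 2, CON 2 or CON 3 (adjusted p up to 0.145). The lower genes with the smallest p were Dbf4 and Orc5, which serve origin firing and origin recognition, with differences of -0.81 and -0.60 (adjusted p = 0.0705 and 0.167). Of 74 tested other mitosis genes, 1 rose and none fell, with a median of 0.14. At an unadjusted p under 0.05, 8 were higher and 0 lower, beside the same 15% and 11.3% of all genes tested. Voom called 0. The mitosis gene that rose was Psrc1, which encodes a microtubule protein that is also a known p53 target. It had 362, 222 and 235 in KO, against 68.6, 40.9 and 33.9 in CON (1.23, SE 0.26, limma adjusted p = 0.0120). Its call was lost without KO 1 (limma adjusted p = 0.0544). The lower genes with the smallest p were Cenpm and Cdca2, with differences of -0.46 and -0.41 (adjusted p = 0.332 and 0.373). The shares of the 2 lists called higher are under those of all genes tested, of which 6.91% were called higher.

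Among 8 tested G1 cyclin, CDK and growth genes, 2 rose, Cdk2 and Myc, where 6.91% of all genes tested did. Cdk2, whose kinase pairs with the E and A cyclins and is a target of the Cdkn1a product, had 2093, 1635 and 1101 normalised reads in KO, against 385, 535 and 761 in CON (1.28, SE 0.28, limma adjusted p = 0.0132). No KO library overlapped with CON, and the call was lost when either KO 1 or KO 2 was left out (adjusted p = 0.0601 and 0.0595). Myc, which encodes a growth-promoting transcription factor, had 773, 659 and 552 in KO, against 78.1, 104 and 0 in CON (2.27, SE 0.37, adjusted p = 0.00313). Its call held with each library left out and was lost with voom on size factors (adjusted p = 0.0533), with voom on reads without crystallins (0.0559) and on log2 of normalised reads plus 1 (0.0656). Mycn, a relative of Myc, had 594, 1192 and 961 in KO, against 4049, 3484 and 851 in CON, and did not pass (-1.25, adjusted p = 0.102). The D cyclin genes Ccnd1, Ccnd2 and Ccnd3 did not pass, with differences of 0.85, 0.47 and -0.14. Of 18 tested inhibitors, pocket proteins, E2F factors and their partners, Cdkn1a rose and Cdkn1c fell. Rb1, Rbl2, E2f3 and E2f4 did not pass, with differences of 0.28, 0.65, 0.42 and -0.50.

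The count of members that rose depended on the scaling. With voom on reads divided by the library total, in which the median of all genes tested stood at 0.86, 9 of 15 replication and 2 of 20 mitosis members were called higher, where 28.9% of all genes were. Relative to the median of all genes tested, the median of the replication members stood 0.84 higher and that of the mitosis members 0.14 higher in that fit. With voom on size factors these distances were 0.86 and 0.14, and in the limma fit of the deposited values 0.55 and 0.11. Of all called genes, 97.5% were higher in KO with voom on total reads, against 61.1% on the deposited scale, 47.1% with voom on size factors and 47.3% with equal library medians, where only Spag5 of the members was called under each of the last 2.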

How the data were processed

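The submitters' processing notes name Trimmomatic, HISAT2 2.1.0, featureCounts 1.6.4 and DESeq2 (there 2.11.0.6) as tools and mm9 as the build. Whether counting used strand is not given in the sources used here. The values deposited by the authors are on a log2 scale after a variance-stabilising transformation, with 6.50 for a gene without reads. The transformation was inverted to reads. All values of up to 5000 reads came within 0.1 of a whole number. Size factors (KO 1.74, 1.66 and 1.89; CON 0.947, 0.318 and 0.678) were identical to median-of-ratios factors of those reads. Identifiers were matched to RefSeq symbols (25275 of 27179).

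The comparison of KO with CON used limma 3.58.1 (R 4.3.3; eBayes with trend, two-sided) on the deposited values of genes whose mean lay 1 unit or more over the value without reads. The fit was tested on simulated reads with the same setting of spread between libraries for every gene. Members with a wider spread, such as Mcm6 and Rrm2 in CON, lie outside that setting. Alternatives were other filters, scalings, transformations and variance models, voom on the reads, the replicate number as a block, and each library left out. The members, lists and tests were chosen with earlier results of these data known. All members and Cdkn1a were to be named. Of the wider lists, the rule named called inhibitors, G1 cyclins and CDKs, and up to 6 called replication or mitosis genes per direction, or the 2 with the smallest p where none was called. Other genes of those lists and the markers named were chosen after their values were seen. Results of 2 listed marker genes are not reported here. Exon lengths are unions of GENCODE M21 exons. Reads carry no molecular identifiers, so the floor of 3 reads covers counting error only.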

Additional observations from a re-analysis of the deposited data

How the results depend on the processing

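Spag5 and Cdkn1a kept their direction and their calls under all 18 alternatives (differences from -2.62 to -1.64 and from 4.68 to 7.22). Of the 616 values of members under alternatives, 532 kept direction and side of the threshold, 21 lost a call (Mcm3 and Mcm4), 14 gained one and 49, of 17 members, changed sign without a call in either fit. Against 1297 called genes, 3 called members and 6 called genes of the wider lists, the counts that moved by over 1.5 times were these. No filter gave 1 member. A filter of 3 units gave 802 genes and 3 genes of the wider lists. Equal library medians gave 1 member. Voom with size factors gave 1 member and 3 wider genes, with total reads 3399 genes, 12 members and 39 wider genes, and with reads without crystallins 863 genes and 1 member. Library weights gave 2152 genes, 5 members and 11 wider genes. With 1 library left out, the counts ran from 533 to 1943 genes, from 1 to 4 members and from 3 to 15 wider genes. The replicate number as a block gave 914 genes, 4 members (Spag5, Mcm4, Cdc6 and Rrm2) and 7 wider genes. Same-numbered KO and CON libraries had residual correlations of -0.364, -0.128 and -0.140, so the numbers were not taken as pairs. The causes of these changes were not tested. Counting error weighs most on genes with few reads, such as Foxm1 and Cdc6. In CON 2, the shallowest library, 3 reads come to 9.44 normalised reads. Both genes had reads there (37.8 and 110 normalised reads) and were at 0 in CON 3, where 3 reads come to 4.42. The column name of CON 2 also carries another ending than those of the other libraries, whose meaning the labels do not give.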
